A study of Mus musculus with 6 samples.

Results

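The methyl cycle and DNA methylation genes described here are 10 genes chosen by name from a table of 47729 genes: Mat2a, Mat2b, Ahcy, Mtr, Dnmt1, Dnmt3a, Dnmt3b, Tet2, Tet3 and Uhrf1. All 10 were in the table and all 10 passed the filter on low counts. Messenger RNA was sequenced from the epidermis of wild-type C57BL/6 mice, with 3 libraries from skin that received a gel with AKBA and 3 from skin that received a blank gel, called AKBA gel and control gel below. AKBA commonly stands for an acetylated keto boswellic acid, one of the triterpenes found in the resin of Boswellia trees. The control libraries also bear the letters IMQ, whose meaning the labels leave unsaid, and the labels name no treatment other than the gels. Separate animals are not named for the libraries either, so each p-value measures the spread between libraries, which may be technical.

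The libraries held 19066045 to 22760432 counts. Epidermis was separated with the enzyme Dispase II, and its markers were abundant: the 9 suprabasal keratinocyte genes summed to 35632 to 65187 CPM with AKBA gel and 26674 to 40106 CPM with control gel, where CPM is the count brought to a common, scaled library size. Fibroblast genes, at 19856 to 26201 and 19227 to 35815 CPM, and skeletal muscle genes, at 3873 to 4552 and 2957 to 6658 CPM, were present too. In such mixed tissue, fewer cells of a type and less RNA per cell cannot be told apart. Of 17023 genes tested with edgeR's quasi-likelihood test, 0% passed an adjusted p of 0.05.

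The methionine cycle supplies the methyl groups that cells attach to DNA, RNA, proteins and small molecules. Mat2a encodes the catalytic subunit of the methionine adenosyltransferase of most tissues, which joins methionine to ATP and gives S-adenosylmethionine (SAM), and Mat2b encodes its regulatory subunit. Once SAM has donated its methyl group, Ahcy splits the remaining S-adenosylhomocysteine, and Mtr, which needs folate and cobalamin, turns homocysteine back into methionine. Dnmt1 copies CpG methylation at replication, with Uhrf1 bringing it to hemimethylated sites, Dnmt3a and Dnmt3b methylate new sites, and Tet2 and Tet3 oxidise the methyl mark.

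Mat2a has a control element in its own message. The RNA methyltransferase METTL16 is known to methylate hairpins in the 3′ UTR of the Mat2a message around a motif of 9 letters, which changes the splicing and stability of the message with the SAM supply. In the GENCODE M21 transcript Mat2a-201 the 3′ UTR of 1494 bases held 5 matches to that motif, written TACAGAGAA as DNA, on the sense strand, at 40, 824, 1003, 1118 and 1337 bases after the stop codon. They are shown with 10 bases on either side because Mat2a was the gene of the 10 with the lowest p. The capitals mark the match, and the matches lie on the minus strand of chromosome 6 of GRCm38, between 72432948 and 72434253.
Site 1: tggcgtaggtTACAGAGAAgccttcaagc
Site 2: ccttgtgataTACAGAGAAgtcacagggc
Site 3: ctggtgtagcTACAGAGAAaccagcttcc
Site 4: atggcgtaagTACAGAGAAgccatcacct
Site 5: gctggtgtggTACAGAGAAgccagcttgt
Of 20901 genes with an annotated 3′ UTR, 545 (2.61%) had a match and 19 (0.0909%) had 2 or more, the highest number outside Mat2a being 3. The other 9 genes described here had 0 matches. A match of letters is a description and no evidence of methylation in these libraries.

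The promoters of Mat2a and Mat2b are shown because the pair differed in the direction of their values. Those of Dnmt1 and Uhrf1 are shown because both genes followed a proliferation score described below. Dnmt3b and Ahcy followed that score too, and their promoters are not shown. Of 3 Dnmt1 starts and 2 Uhrf1 starts, the 1 of each that holds E2F letters is shown. Each window is 300 bases that end 50 bases after a RefSeq start on GRCm38.p6, 5′ to 3′ along the gene. Both strands were searched for every motif. The GC box was searched as GGGCGG, beside CCAAT. The TATA box was searched as TATAAA and the E-box as CACGTG. For E2F the letters TTTCGCGC, TTTGGCGC and TTTCCCGC were used. Capitals mark matches to any of them, and neighbouring or overlapping matches run together.
Mat2a, chr6:72439507-72439806, minus strand: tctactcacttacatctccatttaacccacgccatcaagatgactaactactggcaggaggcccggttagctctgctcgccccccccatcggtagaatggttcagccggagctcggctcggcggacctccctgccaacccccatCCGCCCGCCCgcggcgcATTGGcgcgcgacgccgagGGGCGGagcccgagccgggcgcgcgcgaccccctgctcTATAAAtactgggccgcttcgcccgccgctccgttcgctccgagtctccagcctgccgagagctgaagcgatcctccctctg
Mat2b, chr11:40692633-40692932, minus strand: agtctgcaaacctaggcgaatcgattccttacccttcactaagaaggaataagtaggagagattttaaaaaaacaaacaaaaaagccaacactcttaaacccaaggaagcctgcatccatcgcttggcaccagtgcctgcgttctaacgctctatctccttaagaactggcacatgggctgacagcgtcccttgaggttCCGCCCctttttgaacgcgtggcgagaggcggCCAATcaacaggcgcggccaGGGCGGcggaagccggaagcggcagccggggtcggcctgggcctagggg
Dnmt1, the third start, chr9:20952574-20952873, minus strand: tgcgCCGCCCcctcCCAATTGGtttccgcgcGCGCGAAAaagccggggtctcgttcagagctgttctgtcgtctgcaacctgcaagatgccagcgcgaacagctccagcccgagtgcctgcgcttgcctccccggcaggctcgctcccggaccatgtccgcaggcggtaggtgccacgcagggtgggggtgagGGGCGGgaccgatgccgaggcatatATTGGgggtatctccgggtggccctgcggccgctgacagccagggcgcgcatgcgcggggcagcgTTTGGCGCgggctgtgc
Uhrf1, the second start, chr17:56304063-56304362, plus strand: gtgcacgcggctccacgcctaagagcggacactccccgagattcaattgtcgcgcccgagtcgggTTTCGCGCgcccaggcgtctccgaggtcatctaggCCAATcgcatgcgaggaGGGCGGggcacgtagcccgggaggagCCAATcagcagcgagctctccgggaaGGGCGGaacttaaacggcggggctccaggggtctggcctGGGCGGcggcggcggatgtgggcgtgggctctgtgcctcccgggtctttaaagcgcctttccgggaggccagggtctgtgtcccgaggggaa
The Mat2a window held 34 CpG and 67% GC, with 3 GC boxes, 1 CCAAT and 1 TATA box. The Mat2b window held 19 CpG, with 2 GC boxes and 1 CCAAT. A GC box was found at a start of all 10 genes and in 35.7% of 32851 promoters. CCAAT was found at a start of 7 of the 10 genes and in 37.4% of promoters. TATAAA was found for Mat2a alone of the 10 and in 13.6% of promoters. The E2F letters were found for Dnmt1 and Uhrf1 alone of the 10 and in 1.84% of promoters, and so not for Dnmt3b and Ahcy. The other 2 Dnmt1 starts and the other Uhrf1 start had 0 matches to them. The E-box was found at a start of 1 of the 10 genes, Dnmt3a, and in 7.15% of promoters. These shares are over single promoters, while Dnmt1, Dnmt3a and Uhrf1 each had more than 1 start to match, so the measures are unlike.

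Levels of different genes were compared by FPKM, which divides by gene length. Mat2a stood first in mean FPKM, at 35.9 over the 6 libraries, followed by Dnmt1 (23.04), Ahcy (21.7), Uhrf1 (15.2), Tet3 (11.5), Mat2b (10.5), Mtr (4.33), Dnmt3a (4.02), Tet2 (3.37) and Dnmt3b (1.09). The FPKM of Mat2a was 28.0 to 44.0, above the range of Dnmt1, 20 to 27.9. Dnmt1 and Ahcy (16.8 to 28.7) overlapped, Uhrf1 spread from 8.85 to 22.5 across both neighbours, and Tet3 (9.61 to 14.1) overlapped Mat2b (8.26 to 12.0). Mtr, Dnmt3a and Tet2 shared the range of 2.78 to 5.34 FPKM, and Dnmt3b lay below them all at 0.82 to 1.53. Mat1a, the liver form of the SAM synthetase, had 0 counts in every library, where 3 counts would be 0.132 to 0.157 CPM.

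Of the 10 genes, Mat2a was lower and Mat2b higher in every AKBA gel library than in any control gel library, while the other 8 overlapped between groups. Among all genes tested, 9.1% were lower without overlap and 9.28% were higher without overlap, so 1 of 10 in each direction was near the background. By edgeR 0 of the 10 passed the adjusted threshold. At an unadjusted p under 0.05, Mat2a was lower and Mat2b higher, against 7.01% of all genes tested lower and 6.45% higher. With DESeq2's Wald test 1 of the 10, Mat2a, passed an adjusted p of 0.05 as lower, beside 1.17% of the genes with an adjusted p. None of the 10 genes was marked significant in the authors' deposited table, beside 0.572% of its 47729 genes. That base is wider than the genes tested here, since 19134 of them had no count in any library. By sign alone 8 of the 10 were lower, and their median log2 fold change was -0.20 against 0.00 over all genes tested. This median was -0.09 without AKBA replicate 1, -0.10 without control replicate 2 and -0.36 without AKBA replicate 3.

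**Figure D1:**
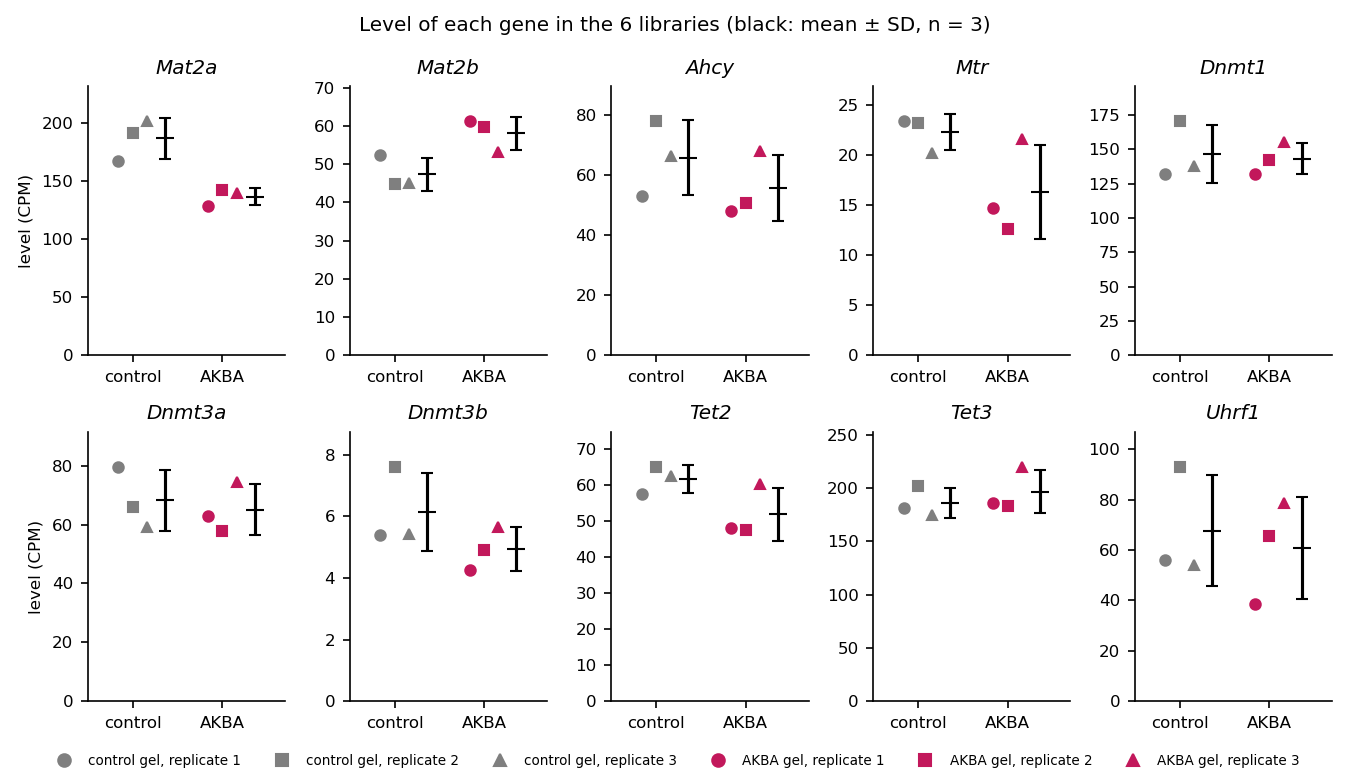
Level of each gene in CPM (vertical axes, from 0) in 3 control gel and 3 AKBA gel libraries, with 1 symbol per replicate and the mean ± SD in black. The Mat2a values with AKBA gel (129 to 142 CPM) lie below all control values (167 to 202 CPM), those of Mat2b lie above them, and the other 8 genes overlap.

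Mat2a stood at 129, 142 and 139 CPM in AKBA gel replicates 1 to 3 and at 167, 191 and 202 CPM in control gel replicates 1 to 3. All 3 AKBA values were below all 3 control values, and each rested on 2621 counts or more. The means were 137 ± 7.07 and 187 ± 17.6 CPM (SD, n = 3 each). The log2 fold change was -0.45 ± 0.12 (SE), with a 95% interval of -0.72 to -0.18, which is a level 0.732 times that of the control. The unadjusted p of edgeR was 0.00525 and its adjusted p 0.331, and its p ranked 237 among the genes tested, counted from the lowest. DESeq2 gave -0.46 with an adjusted p of 0.0495, while edgeR's adjusted p for Mat2a ranged from 0.12 to 0.972 over the alternatives. The authors' deposited table gives a log2 fold change of -0.42 with an adjusted p of 0.282. Leaving out each library in turn kept the log2 fold change between -0.52 and -0.39.

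Markers of other cell types and states were compared between the same groups. The 8 T cell markers, none at 0 counts, summed to 108 to 148 CPM with AKBA gel and 149 to 205 CPM with control gel, but 0 of the 8 were without overlap on their own and most of the sum was Thy1 (82.9 to 108 and 99.9 to 173 CPM). The immediate early and stress genes, 8 of 10 lower by sign and none at 0 counts, summed to 694 to 743 and 758 to 1127 CPM. Of these, 4 were lower without overlap, beside 9.1% of all genes tested. They were Fos (log2 fold change -1.79 ± 0.34), Fosb (-2.29 ± 0.57), Junb (-0.91 ± 0.29) and Atf3 (-0.60 ± 0.19), and DESeq2 called Fos and Fosb. In the macrophage and dendritic list, 6 of 9 genes were lower by sign and none at 0 counts, with overlapping sums of 1942 to 2211 and 2054 to 2638 CPM. Its members Cd163 (log2 fold change -0.79 ± 0.14), Mrc1 (-0.71 ± 0.17) and Csf1r (-0.51 ± 0.19) were lower without overlap. DESeq2 called Cd163 and Mrc1, beside 1.17% of the genes with an adjusted p that it called lower. Cd207 of the same list was higher without overlap (1.18 ± 0.31), beside 9.28% of all genes tested, and DESeq2 called it too. By sign, 7 of 7 endothelial, 5 of 5 tested neutrophil (with Ly6g at 0 counts) and 18 of 18 proliferation genes were lower. In the other direction, 8 of 8 sebocyte and 8 of 9 suprabasal keratinocyte genes were higher. The sums of these lists overlapped between groups. Without overlap, 2 endothelial, 2 neutrophil and 0 proliferation genes were lower, and 3 sebocyte and 1 suprabasal gene were higher. Among them DESeq2 called Mmp9 of the neutrophil list (-2.03 ± 0.51). It also called the suprabasal gene Lor (1.27 ± 0.42), whose groups overlapped. Of the 8 basal keratinocyte genes, 5 were lower and 3 higher by sign, with 1 in each direction without overlap. Krt14 was the lower (-1.22 ± 0.45) and Krt15 the higher (1.27 ± 0.38), while the keratin Krt5 overlapped (-0.24 ± 0.26). The genes named from these lists were picked after their values were seen. Their part in the Mat2a difference was not tested.

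Mat2b went the other way, at 61.3, 59.6 and 53.2 CPM with AKBA gel and 52.4, 44.8 and 45.0 CPM with control gel. The lowest AKBA value lay just above the highest control value. The means were 58.0 ± 4.26 and 47.4 ± 4.34 CPM (SD, n = 3 each), and the log2 fold change was 0.29 ± 0.11, with a 95% interval of 0.03 to 0.55 (edgeR adjusted p = 0.346, DESeq2 adjusted p = 0.395). The authors' deposited table gives 0.32 with an adjusted p of 0.635.

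Within a library, the balance of both subunits does not depend on how libraries are scaled. Mat2a had 2.34, 2.65 and 2.92 times the FPKM of Mat2b in the AKBA gel libraries and 3.56, 4.76 and 4.99 times in the control gel libraries. The groups did not overlap, and the mean ratio was 2.64 ± 0.289 against 4.44 ± 0.770 (SD, n = 3 each). As a log2 ratio of counts the difference was -0.74. The exact 2-sided permutation p was 0.1, the smallest that 3 against 3 can give, and it was 0.25 after adjustment over the 5 ratios compared. The lack of overlap and the p of 0.1 follow from the separate levels of Mat2a and Mat2b, so they add no further result.

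The promoter end of Mat2a is shared with another transcript. Particl, a noncoding RNA known to be transcribed from the Mat2a promoter on the opposite strand, spans chr6:72439051-72440610 of GRCm38 and overlaps 508 bases of the annotated Mat2a gene, chr6:72432799-72439558. It was looked at after its values had been seen. Particl stood at 5.2, 5.9 and 3.54 CPM with AKBA gel and 3.0, 3.06 and 1.72 CPM with control gel, from 36 to 111 counts. All AKBA values were above all control values, with a log2 fold change of 0.91 ± 0.30 (edgeR adjusted p = 0.339). Counting by strand is not stated, so reads of Mat2a and Particl in the shared stretch cannot be told apart.

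Ahcy, which removes the SAM byproduct that inhibits methyltransferases, was at 48.1, 50.6 and 68.2 CPM with AKBA gel and 53.2, 78.0 and 66.3 CPM with control gel. The groups overlapped, AKBA replicate 3 being above controls 1 and 3. Its log2 fold change was -0.24 ± 0.19 (edgeR adjusted p = 0.596). Leaving out AKBA replicate 3 gave -0.40 and leaving out control replicate 2 gave -0.11. The Mat2a over Ahcy ratio, which sets SAM synthesis beside removal of its byproduct, overlapped between groups, with a log2 difference of -0.20 (exact permutation p = 0.4, adjusted 0.625) that ranged from -0.32 to -0.06 over the alternatives.

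Mtr, the remethylating enzyme, was at 14.7, 12.6 and 21.6 CPM with AKBA gel and 23.4, 23.2 and 20.2 CPM with control gel. AKBA replicates 1 and 2 lay below every control, and AKBA replicate 3 lay among the controls. For Mtr the log2 fold change was -0.45 ± 0.20, with a 95% interval of -0.92 to 0.03 (edgeR adjusted p = 0.395). It was -0.69 without AKBA replicate 3 and -0.29 without AKBA replicate 2, so those libraries moved the value by more than 1.5 times.

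**Figure D2:**
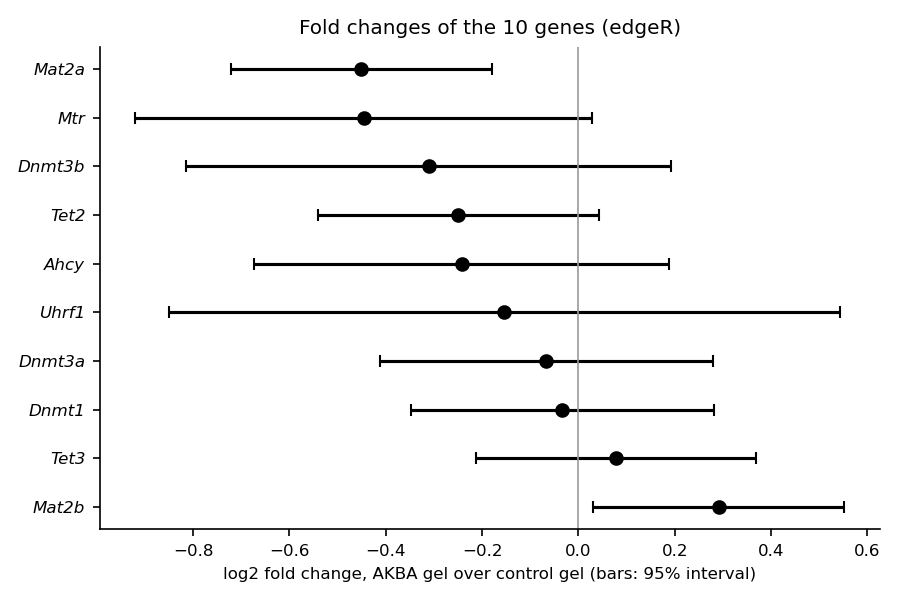
Log2 fold change of each gene, AKBA gel over control gel (horizontal axis), with points for the edgeR estimate and bars for the 95% interval. The intervals of Mat2a (-0.72 to -0.18) and Mat2b (0.03 to 0.55) leave out 0, and those of the other 8 genes include it.

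Dnmt1, the maintenance methyltransferase, was at 132, 142 and 155 CPM with AKBA gel and 132, 170.4 and 137 CPM with control gel. The highest value belonged to control replicate 2, and the other values overlapped. The log2 fold change was -0.03 ± 0.13, with a 95% interval of -0.35 to 0.28 (edgeR adjusted p = 0.937). Its partner Uhrf1 spread more within groups, at 38.6, 65.5 and 78.5 CPM with AKBA gel and 56.2, 93.0 and 54.0 CPM with control gel. AKBA replicate 1 was the lowest and control replicate 2 the highest. Its log2 fold change was -0.15 ± 0.30, with a 95% interval of -0.85 to 0.54 (edgeR adjusted p = 0.856). The sign of both genes turned when AKBA replicate 1 was left out, to 0.02 for Dnmt1 and 0.09 for Uhrf1, and when control replicate 2 was left out, to 0.08 and 0.13.

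Dnmt3a, which methylates new sites, was at 62.8, 57.9 and 74.6 CPM with AKBA gel and 79.6, 66.0 and 59.0 CPM with control gel. The groups overlapped across nearly their whole range, and the log2 fold change was -0.07 ± 0.15, with a 95% interval of -0.41 to 0.28 (edgeR adjusted p = 0.878). It turned to 0.01 without AKBA replicate 2 and to 0.07 without control replicate 1. Dnmt3b, the other such enzyme, was the lowest of the 10 at 4.27, 4.89 and 5.67 CPM with AKBA gel and 5.38, 7.60 and 5.41 CPM with control gel. AKBA replicate 3 exceeded controls 1 and 3, and the log2 fold change was -0.31 ± 0.22 (edgeR adjusted p = 0.558), or -0.13 without control replicate 2. With 87 counts in its lowest library, counting error alone was 10.7% there, against 1.7% to 6.48% for the other 9 genes.

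Of the summed FPKM of Dnmt1, Dnmt3a and Dnmt3b, Dnmt1 made up 81.5% to 83.6% with AKBA gel and 78.2% to 83.2% with control gel. Dnmt3a made up 12.9% to 14.8% and 12.2% to 17.9%, so both overlapped between groups. Dnmt3b made up 3.28% to 3.67% with AKBA gel and 3.96% to 4.57% with control gel, without overlap. How often such shares of other genes stood apart was not computed. The Dnmt3a over Dnmt3b ratio overlapped, with a log2 difference of 0.24 (exact permutation p = 0.5, adjusted 0.625), as did the Uhrf1 over Dnmt1 ratio, at -0.14 (exact permutation p = 0.8, adjusted 0.8). Over the alternatives the first ranged from 0.05 to 0.44, and the second from -0.30 to 0.10, its sign turning without AKBA replicate 1.

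Tet2, an oxidase of 5-methylcytosine, was at 48.0, 47.5 and 60.3 CPM with AKBA gel and 57.6, 65.1 and 62.6 CPM with control gel. AKBA replicates 1 and 2 lay below every control and AKBA replicate 3 above control replicate 1. For Tet2 the log2 fold change was -0.25 ± 0.13, with a 95% interval of -0.54 to 0.04 (edgeR adjusted p = 0.437). Tet3, the most abundant enzyme of its family here, was at 186, 184 and 219.9 CPM with AKBA gel and 182, 202 and 175 CPM with control gel. Its groups overlapped, with a log2 fold change of 0.08 ± 0.12 and a 95% interval of -0.21 to 0.37 (edgeR adjusted p = 0.819), and without AKBA replicate 3 it was 0.003.

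The ratio of both Tet genes within a library stood apart between the groups. Tet3 had 3.92, 3.90 and 3.69 times the FPKM of Tet2 in the AKBA gel libraries and 3.19, 3.14 and 2.83 times in the control gel libraries. The groups did not overlap, with means of 3.84 ± 0.129 and 3.05 ± 0.196 (SD, n = 3 each). The log2 difference of the count ratio was 0.33, with an exact permutation p of 0.1, the smallest possible, and 0.25 after adjustment over the 5 ratios. How often the ratios of other gene pairs stood apart was not computed, so the separation has no background beside it. Tet2 made up 19.9% to 20.7% of the summed FPKM of Tet1, Tet2 and Tet3 with AKBA gel and 23.3% to 25.8% with control gel. Tet3 made up 76.4% to 78.3% and 73.0% to 74.4%, and Tet1 the small rest, so these shares largely restate the ratio.

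**Figure D3:**
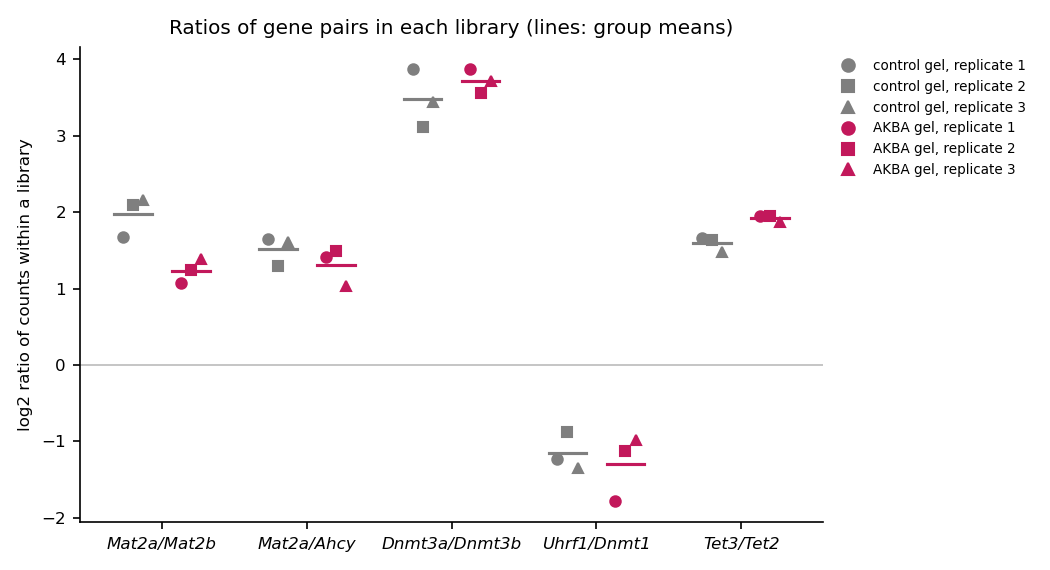
Log2 ratio of counts within a library (vertical axis) for 5 pairs of genes, with 1 symbol per library and lines at the group means. The Mat2a over Mat2b ratio is lower and the Tet3 over Tet2 ratio higher in all 3 AKBA gel libraries than in any control gel library, and the other 3 pairs overlap. For Mat2a over Mat2b this follows from the separate levels of both genes.

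Uhrf1 and Dnmt1 are known to be expressed in dividing cells, so each gene was set beside a proliferation score, the mean log2 CPM of 18 cell cycle genes such as Mki67. The score was 5.17, 5.53 and 5.87 in the AKBA gel libraries and 5.47, 6.02 and 5.56 in the control gel libraries. The groups overlapped (difference -0.16, exact permutation p = 0.6), with Mki67 at 252 ± 84.9 and 271 ± 75.0 CPM (SD, n = 3 each). Hair follicle markers also varied within groups, summing to 30.2, 760 and 1619 CPM with AKBA gel and 227, 2148 and 72.3 CPM with control gel. Their part in the relations below was not tested.

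Over the 6 libraries Uhrf1 followed the score with a Pearson r of 0.97 and a Spearman rho of 0.83 (exact permutation p adjusted over the 10 genes = 0.0231 and 0.146). Dnmt1 had an r of 0.93 and a rho of 0.89 (adjusted exact p = 0.0231 and 0.111). Dnmt3b had an r of 0.91 and a rho of 0.94 (adjusted exact p = 0.0312 and 0.0833), and Ahcy an r of 0.90 and a rho of 0.94 (adjusted exact p = 0.0231 and 0.0833). These 4 genes passed 0.05 by Pearson's r and none passed it by Spearman's rho. Without AKBA replicate 1 and control replicate 2, the libraries farthest from the median score, r was 0.86 for Uhrf1, 0.94 for Dnmt1, 0.62 for Dnmt3b and 0.71 for Ahcy over the 4 libraries left.

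Ahcy, Dnmt1 and Dnmt3b had the same order of libraries as the score inside both groups. Groups of 3 are too small for a correlation of their own. Mat2a was different: its r was 0.45 (adjusted exact p = 0.42), and it was -0.49 without those libraries, so any relation rested on them. Mat2b had an r of -0.65 (adjusted exact p = 0.218) and 0.03 without them. Tet2, Tet3, Mtr and Dnmt3a had an r of 0.74, 0.67, 0.58 and 0.22, and none of them passed 0.05 after adjustment.

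**Figure D4:**
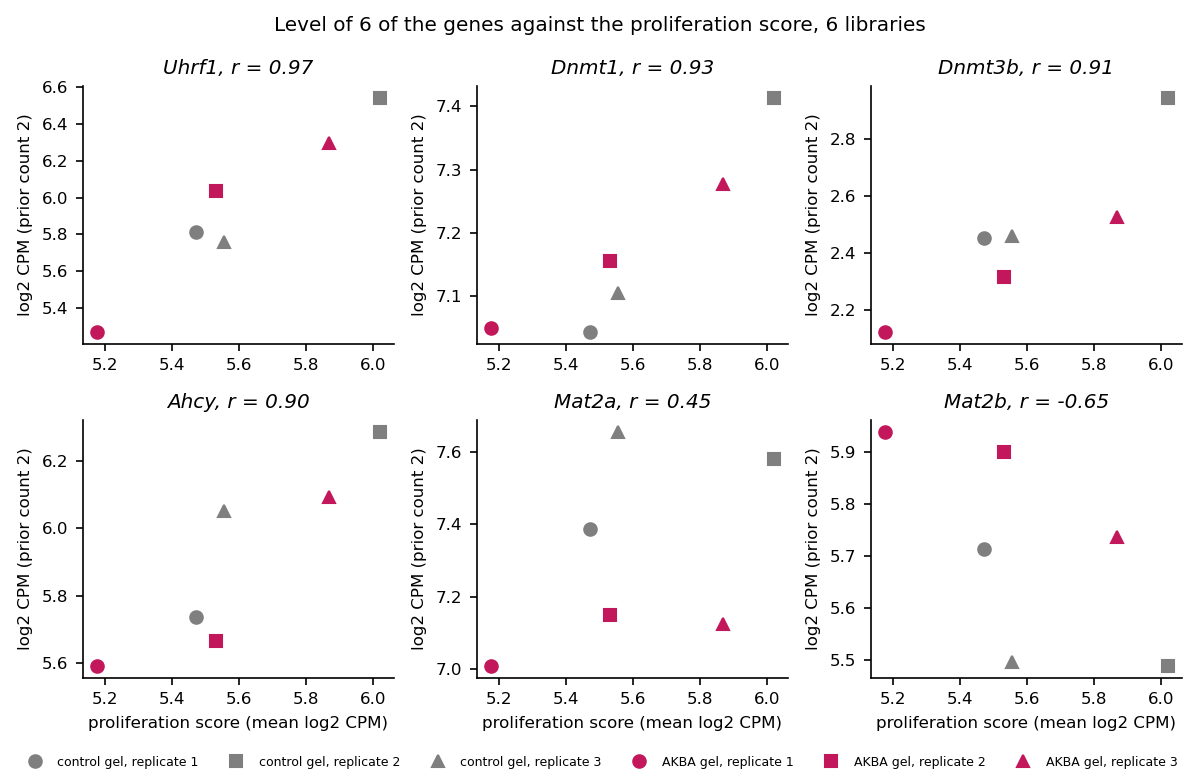
Level of 6 of the genes (log2 CPM, vertical axes) against the proliferation score (mean log2 CPM of 18 genes, horizontal axis), with 1 symbol per library. Uhrf1, Dnmt1, Dnmt3b and Ahcy run with the score (r of 0.97, 0.93, 0.91 and 0.90). In Mat2a and Mat2b the levels do not overlap between groups, though for Mat2b AKBA replicate 3 (5.74) and control replicate 1 (5.71) nearly meet.

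The genes whose pattern was most like that of Mat2a over the 6 libraries were found among 8279 genes with a mean of at least 20 CPM. By Pearson r of log2 CPM they were Kdelr2 (0.993), Urb2 (0.992), Pwp1 (0.991), Fam98a (0.988) and Ms4a6b (0.987). Their log2 fold changes were -0.23, -0.50, -0.43, -0.37 and -0.88. Of the 10 genes, Tet2 came nearest to Mat2a with an r of 0.78, and Mat2b had -0.94. These values describe 6 libraries that share the group difference.

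The wider pathway was described by 9 lists, with 0 genes past the adjusted threshold of edgeR in any of them. In the list of the methionine cycle and SAM synthesis, 10 of 13 genes were tested and 3, Mat1a among them, had 0 counts throughout. At an unadjusted p under 0.05, 2 were lower and 1 was higher, beside 7.01% and 6.45% of all genes tested. The lower genes were Mat2a and Ahcyl2 and the higher was Mat2b, so only Ahcyl2 was not described above. The median log2 fold change was -0.17. Ahcyl2, a relative of Ahcy, was at 59.6 ± 1.10 and 71.0 ± 6.69 CPM (SD, n = 3 each) without overlap, with a log2 fold change of -0.25 ± 0.10. The more abundant Ahcyl1 was at 152 ± 7.22 and 161 ± 12.8 CPM. Cbs, which draws homocysteine off towards cysteine, varied from 12.8 to 28.8 CPM with AKBA gel and 5.94 to 18.2 CPM with control gel.

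All 10 methionine transporters were lower by sign, with a median of -0.33 beside 0.00 over all genes tested. The share of all genes that were lower by sign was not computed. At an unadjusted p under 0.05, 4 of the 10 were lower and 0 higher, beside 7.01% and 6.45% of all genes tested. Slc3a2, the heavy chain of the large neutral amino acid transporter, was at 73.8, 70.9 and 85.2 CPM with AKBA gel and 93.0, 125 and 108 CPM with control gel, without overlap (log2 fold change -0.50 ± 0.14, edgeR adjusted p = 0.331). The log2 fold changes of its light chain partners in the list were -0.83 ± 0.31 for Slc7a5, -0.53 ± 0.20 for Slc7a7, -0.66 ± 0.61 for Slc7a8 and -0.06 ± 0.16 for Slc7a6. Slc7a5, picked for naming after its value was seen as were Slc7a6 and Slc7a8, was at 34.1 to 50.6 and 40.8 to 99.5 CPM, which overlapped, and Slc7a7 was at 4.89 to 7.51 and 8.999 to 9.92 CPM, which did not. Slc38a2, a sodium-coupled neutral amino acid carrier, was at 257 ± 7.61 and 327 ± 40.5 CPM. Slc1a5, another neutral amino acid carrier, was at 109 ± 21.9 and 134 ± 14.2 CPM with overlap.

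Polyamine synthesis consumes SAM after its decarboxylation. Of 16 genes of polyamines and methionine salvage, 4 were lower and 1 higher at an unadjusted p under 0.05, beside 7.01% and 6.45% of all genes tested. The median was -0.09, or -0.19 with the replicate block and -0.17 without control replicate 1. Odc1, the rate-limiting enzyme that makes putrescine, was at 53.4, 98.1 and 108 CPM with AKBA gel and 113, 300.1 and 383 CPM with control gel. The groups did not overlap, although control replicate 1 lay just above AKBA replicate 3. The log2 fold change of Odc1 was -1.62 ± 0.45 (edgeR adjusted p = 0.331, DESeq2 adjusted p = 0.0099), and it was the 1 gene of this list that DESeq2 called.

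Srm, the spermidine synthase, was at 33.5 ± 5.82 and 53.1 ± 11.1 CPM, with a log2 fold change of -0.67 ± 0.19. The catabolic enzymes Sat1 (-0.63 ± 0.27) and Smox (-0.54 ± 0.23) were lower without overlap, their control values being spread by control replicate 3, at 379 and 211 CPM. Paox, another polyamine oxidase, was higher at 29.3 ± 1.998 against 23.9 ± 1.97 CPM. Oaz1, the antizyme that binds the Odc1 enzyme, was at 258 ± 31.9 and 234 ± 11.8 CPM with overlap.

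Folate enzymes hand the methyl group to Mtr. Of 15 genes, 4 were lower and 1 higher at an unadjusted p under 0.05, beside 7.01% and 6.45% of all genes tested. The median was -0.12, or -0.23 without AKBA replicate 3. The enzymes lower at that level were Aldh1l2 (18.3 ± 3.84 against 28.2 ± 4.58 CPM), Shmt2 (58.8 ± 6.26 against 80.0 ± 19.2 CPM) and Mthfd2 (11.3 ± 1.88 against 17.2 ± 4.57 CPM). Shmt2 and Mthfd2 overlapped between groups, and Mthfd2 was picked for naming after its value was seen. The trifunctional enzyme Mthfd1 was at 42.6 ± 6.45 and 43.4 ± 6.80 CPM.

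The folate carriers differed in direction. Slc19a1, the reduced folate carrier, was at 5.64, 9.19 and 8.69 CPM with AKBA gel and 10.7, 17.0 and 14.4 CPM with control gel. Slc46a1, the proton-coupled carrier, was at 12.1, 14.1 and 10.2 CPM with AKBA gel and 8.62, 6.55 and 5.46 CPM with control gel. Neither overlapped, with log2 fold changes of -0.84 ± 0.24 and 0.82 ± 0.21 (edgeR adjusted p = 0.331 for both).

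Genes that place, read or remove methyl marks were described by the other 5 lists. The median of 19 genes of DNA methylation and hydroxymethylation was -0.03. At an unadjusted p under 0.05, 1 was lower and 0 higher, beside 7.01% and 6.45% of all genes tested. That gene was Dnmt3l, the cofactor of Dnmt3a and Dnmt3b without catalytic activity, at 2.60, 1.38 and 2.73 CPM with AKBA gel and 2.90, 4.24 and 8.24 CPM with control gel. The values rested on 26 to 172 counts, with a counting error of 19.6% in the lowest library (edgeR adjusted p = 0.34). The highest AKBA value lay just below the lowest control value. Tet1 was at 4.87 ± 2.11 and 3.97 ± 1.32 CPM. The abundant members Trim28 and Usp7 overlapped between groups, at 141 ± 24.4 and 159.9 ± 21.04 CPM and at 234 ± 21.7 and 220.3 ± 9.84 CPM.

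Of 8 methyl-CpG readers 0 had an unadjusted p under 0.05, beside 7.01% lower and 6.45% higher of all genes tested. Their median was -0.02, and Mbd3 and Mbd2 had log2 fold changes of 0.01 ± 0.13 and -0.11 ± 0.11. Of 25 protein methyltransferases 0 had an unadjusted p under 0.05, with a median of -0.04, and Ehmt2 and Setd8 were at 0.00 ± 0.11 and -0.01 ± 0.13. Of 11 small-molecule methyltransferases 0 did, with a median of 0.13. Nnmt, which methylates nicotinamide, was at 12.3 ± 0.622 and 15.1 ± 2.01 CPM without overlap, and Icmt, at 88.8 ± 6.34 and 91.6 ± 6.07 CPM, overlapped.

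Of 18 genes that write, read or erase N6-methyladenosine, 1 was lower at an unadjusted p under 0.05, beside 7.01% of all genes tested. It was the demethylase Alkbh5, at 105 ± 5.08 and 126 ± 9.02 CPM with a log2 fold change of -0.26 ± 0.10. The median of the list was -0.08. Mettl16, the enzyme known for the Mat2a sites shown above, was at 21.3, 25.9 and 26.6 CPM with AKBA gel and 27.4, 30.0 and 31.5 CPM with control gel. The groups did not overlap, with a log2 fold change of -0.27 ± 0.13 (edgeR adjusted p = 0.408). Among all genes tested, 9.1% were lower without overlap.

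**Figure D5:**
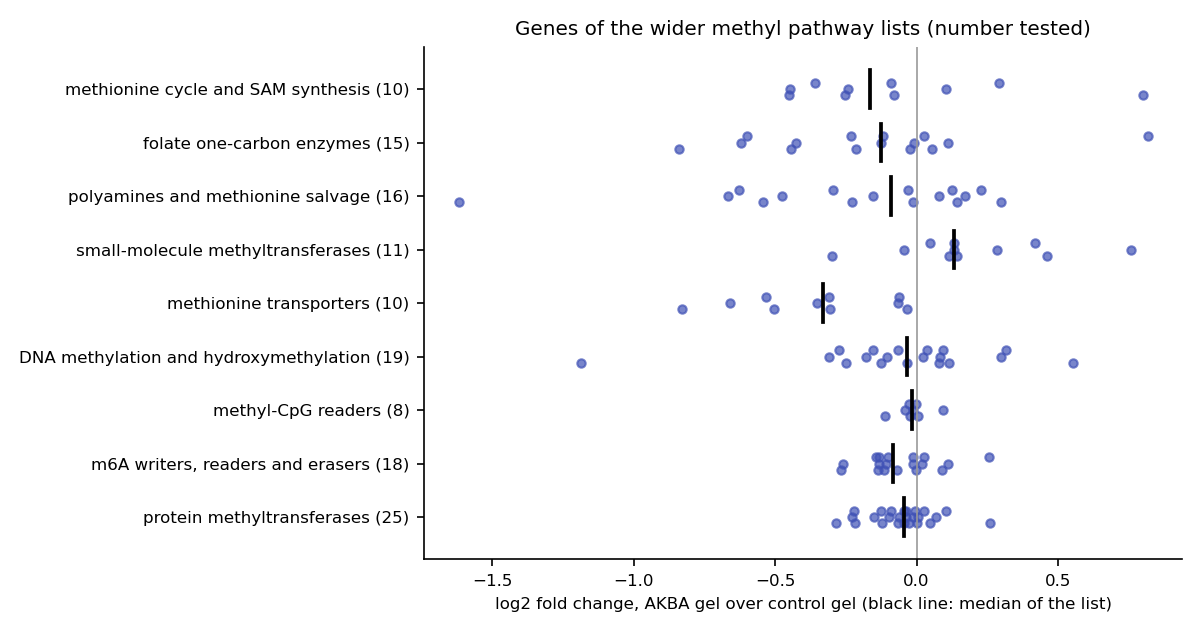
Log2 fold change, AKBA gel over control gel (horizontal axis), of every gene tested in 9 pathway lists, with 1 point per gene, the list's median as a black line and the number tested in brackets. The 10 methionine transporters all lie below 0, the polyamine list reaches down to Odc1 at -1.62, and the readers and protein methyltransferases lie close to 0.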

How the data were processed

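RNA sequencing of 6 mouse epidermis libraries was used, 3 with AKBA gel and 3 with control gel, grouped by their titles. The authors deposited whole-number counts and FPKM values per gene and library, and their own log2 fold change, p-value and adjusted p-value of AKBA gel over control gel, per the file headers. CASAVA 1.8, RSEM, edgeR and GRCm38 are named, per the submitters' processing notes, without their roles. The annotation release and the strand setting were not stated there.

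All 47729 genes were read into R 4.3.3, and edgeR 4.0.16 was run on the 17023 that its filter on low counts kept, with library sizes scaled by TMM, the quasi-likelihood F test and Benjamini-Hochberg adjustment at 0.05. A standard error is the log2 fold change divided by the square root of F. CPM values are TMM-scaled counts, given as mean ± SD of 3 libraries. FPKM was used as deposited to compare genes with each other. Ratios used counts with 0.5 added, correlations used log2 CPM with a prior count of 2, and both used exact 2-sided permutation tests. Counts of any 2 libraries in a group were farther apart than sampling would give (chi-square per degree of freedom 30.8 or more). The edgeR step was tested on simulated data. Listed genes were found by symbol, 4 of them by identifier under an older symbol.

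The 10 genes, the lists and the tests were chosen with earlier results of these data known. Genes named beside the 10 were, per list, the 2 with the highest mean FPKM and those without overlap of groups at an unadjusted p under 0.05. Mat1a, Mettl16, Nnmt, Cbs, Tet1, Dnmt3l and Mki67 were named whatever their values, as were the 5 genes most like Mat2a. Of the genes this rule names, 1 is not reported here. Alternatives were DESeq2 1.42.0, its size factors, other filters, a replicate block, left-out libraries, FPKM ratios and another prior count. Positions are those of GENCODE M21, and promoters those of RefSeq.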

Additional observations from a re-analysis of the deposited data

How the results depend on the processing

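Of 120 values of the 10 genes under 12 alternatives each, 113 kept their direction and their side of the threshold, 6 turned sign and 1 came past the threshold. That 1 was Mat2a with DESeq2 (-0.46, adjusted p = 0.0495), which made 1 of the 10 genes called in place of 0 and 292 genes called in all (203 lower, 89 higher). With each library left out in turn, edgeR called 0 to 14 genes, the 14 (13 lower, 1 higher) without control replicate 1, and 0 of the 10 genes. The log2 fold change then ranged from -0.095 to 0.082 for Dnmt1, from -0.165 to 0.067 for Dnmt3a and from -0.37 to 0.13 for Uhrf1, and the cause of the turned signs was not tested. The Mat2a over Mat2b difference ranged from -0.89 to -0.65 and the Tet3 over Tet2 difference from 0.28 to 0.37 over left-out libraries and FPKM. In the same alternatives the Uhrf1 over Dnmt1 difference turned sign without AKBA replicate 1 (-0.30 to 0.10), the Dnmt3a over Dnmt3b difference ran from 0.05 to 0.44 and the Mat2a over Ahcy difference from -0.32 to -0.06. The median over the 10 genes ranged from -0.36 to -0.09. List medians ranged from -0.22 to -0.11 (methionine cycle), -0.23 to -0.10 (folate), -0.19 to -0.08 (polyamines), 0.04 to 0.24 (small-molecule methyltransferases), -0.14 to -0.02 (N6-methyladenosine) and -0.09 to 0.00 (protein methyltransferases). Medians of the DNA methylation list (-0.10 to 0.07) and the reader list (-0.08 to 0.02) changed sign among the alternatives, and that of the methionine transporters stayed between -0.45 and -0.24. Without AKBA replicate 2 and control replicate 3 together, 3 of the 10 genes were without overlap, Mtr being added.

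With the replicate number as a block, Mat2a was at -0.45 (edgeR adjusted p = 0.382) and 0 genes were called. Same-numbered libraries deviated together with correlations of 0.0724, 0.0185 and -0.327, so the numbers are not taken to pair the samples. Counting error was at most 10.7% of a value (Dnmt3b), so the number of libraries rather than depth limits the precision of the other 9 genes.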
